A study of Mus musculus with 190 samples.

Results

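The 8 genes described here code for the core of the inflammasome and pyroptosis pathway: the sensors Nlrp3, Nlrc4, Naip5 and Aim2, the adaptor Pycard (ASC), the inflammatory caspases Casp1 and Casp4, and the pore former Gsdmd. They were chosen by gene symbol from a table of 55414 genes, and all 8 had a single entry there and passed the filter on low counts. Whole-blood RNA was sequenced from wild-type NC/Nga males; mice of this inbred strain are known to develop skin inflammation when kept conventionally. The 9 cohorts in conventional housing, numbered groups 1 to 9 in the labels, with 10 libraries per cohort and day, were first sampled on day 2, 5, 9, 12, 16, 19, 23, 26 or 30 in that order. A second sample followed on day 44 in the odd-numbered cohorts and on day 40 in the even-numbered ones. The control cohort, kept specific-pathogen-free (SPF), has 5 libraries each of days 16 and 44. No treatment is named in the labels, all groups share strain, sex and genotype, and the age of the mice is not given in the sources used here.

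Inflammasomes are protein platforms in the cytosol that assemble when a sensor meets a microbial product or a sign of cell damage. The sensor recruits caspase-1, often through the adaptor ASC, and caspase-1 matures interleukin-1 family cytokines and cleaves gasdermin D, whose released part forms pores in the cell membrane. Mouse Casp4, also called caspase-11, senses cytosolic lipopolysaccharide directly and cleaves the same gasdermin. In blood several of these genes are known from neutrophils and monocytes, though not only from these cells, and Casp4 and Aim2 are known to be inducible by interferon.

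In conventional housing 3 genes rose with time and the other 5 moved little. Casp4 went from a median of 10.0 library-scaled read counts (CPM) over the 90 first-sampling libraries to 28.5 over the 90 second-sampling libraries, Nlrp3 from 10.7 to 21.6 and Casp1 from 16.1 to 23.4. The differences of Nlrp3 and Casp1 depended on the scaling, as given below. Gsdmd, the substrate of both caspases, had medians of 9.36 and 10.2 CPM, and Pycard went down from 9.88 to 8.66 CPM. Markers of neutrophils rose in the same samples. Where values of the marker lists were entered as covariates, most of the difference was no longer seen, as given below. Whole blood is a mixture, so more cells of a type and more RNA per cell cannot be told apart here.

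The 250 bases upstream of the most upstream RefSeq transcript start (build GRCm38.p6) are shown for the 3 genes that rose together. Such a sequence was used for 7 of the 8 genes, and that of Gsdmd was not analysed here. Both strands were searched for 5 short motifs, namely the interferon-stimulated response element, STAT (TTCNNNGAA), NF-kB, ETS (GGAAGT) and C/EBP (TTGCNNAA). Capitals mark the matches, sequences run 5′ to 3′ on the strand of the gene, and positions count back from -1, the base before the start. The windows are chr9:5308599-5308848 for Casp4, chr9:5298267-5298516 for Casp1 and chr11:59541319-59541568 for Nlrp3, all on the plus strand.
Casp4: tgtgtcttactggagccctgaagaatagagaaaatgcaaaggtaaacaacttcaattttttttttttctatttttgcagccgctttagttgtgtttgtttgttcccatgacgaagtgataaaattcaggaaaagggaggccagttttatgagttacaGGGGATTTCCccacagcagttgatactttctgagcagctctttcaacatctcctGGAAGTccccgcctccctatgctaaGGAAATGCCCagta
Casp1: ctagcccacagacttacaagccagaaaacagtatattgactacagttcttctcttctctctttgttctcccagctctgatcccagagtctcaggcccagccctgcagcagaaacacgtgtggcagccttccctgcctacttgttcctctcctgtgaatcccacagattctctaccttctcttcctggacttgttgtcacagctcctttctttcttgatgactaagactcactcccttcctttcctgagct
Nlrp3: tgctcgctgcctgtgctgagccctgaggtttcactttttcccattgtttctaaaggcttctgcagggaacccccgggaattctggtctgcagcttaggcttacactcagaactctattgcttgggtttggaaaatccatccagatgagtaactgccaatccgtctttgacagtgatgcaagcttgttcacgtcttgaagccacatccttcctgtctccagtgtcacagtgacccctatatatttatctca
Casp4 held 2 NF-kB matches, at -93 to -84 and at -14 to -5, and 1 ETS match at -39 to -34. Of all 27025 genes with such a window, 1.41% held an NF-kB match and 19.95% an ETS match. Casp1 and Nlrp3 held none of the 5 motifs in this window. Among the other genes with a sequence, Nlrc4 held 2 ETS matches and 1 C/EBP match, Pycard 1 of each, and Naip5 and Aim2 1 ETS match each. C/EBP matches occurred in 9.55% of all windows. These are matches of letters and no binding was measured.

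Libraries held between 21444129 and 71967299 counts (median 36448181), and the median count of the 8 genes lay between 291.5 (Nlrc4) and 723.5 (Casp1). The dermatitis score was 0 in every SPF library, in 58 of 90 conventional first-sampling libraries and in 7 of 90 second-sampling libraries. Globin genes took a median of 3.58% of counts in cohorts 1 to 4 and 7.83% in cohorts 6 to 9, and 45.3% in 1 SPF library of day 16. Housing and first sampling day were set per cohort, so no p-value for them measures the spread between cohorts.

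Per length, in the length-scaled unit TPM, the median levels over 190 libraries were 3.63 for Casp4, 3.60 for Gsdmd, 2.96 for Casp1, 2.12 for Nlrp3, 2.01 for Aim2, 1.10 for Pycard, 0.436 for Nlrc4 and 0.359 for Naip5. The order differed between groups: Casp4 had a median of 0.883 TPM on day 2, below Gsdmd (3.52), Aim2 (2.17), Casp1 (2.08) and Pycard (1.29), and one of 8.496 TPM in cohort 8 on day 40. In every group the medians of the caspases and the pore former stood above the sensors Nlrc4 and Naip5 in level. Of the Naip5 values 88.4% were not whole numbers, so its reads were shared with near-identical copies and its level is uncertain. The other comparisons below use CPM or log2 differences of 1 gene with itself, unless TPM is named.

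**Figure D1:**
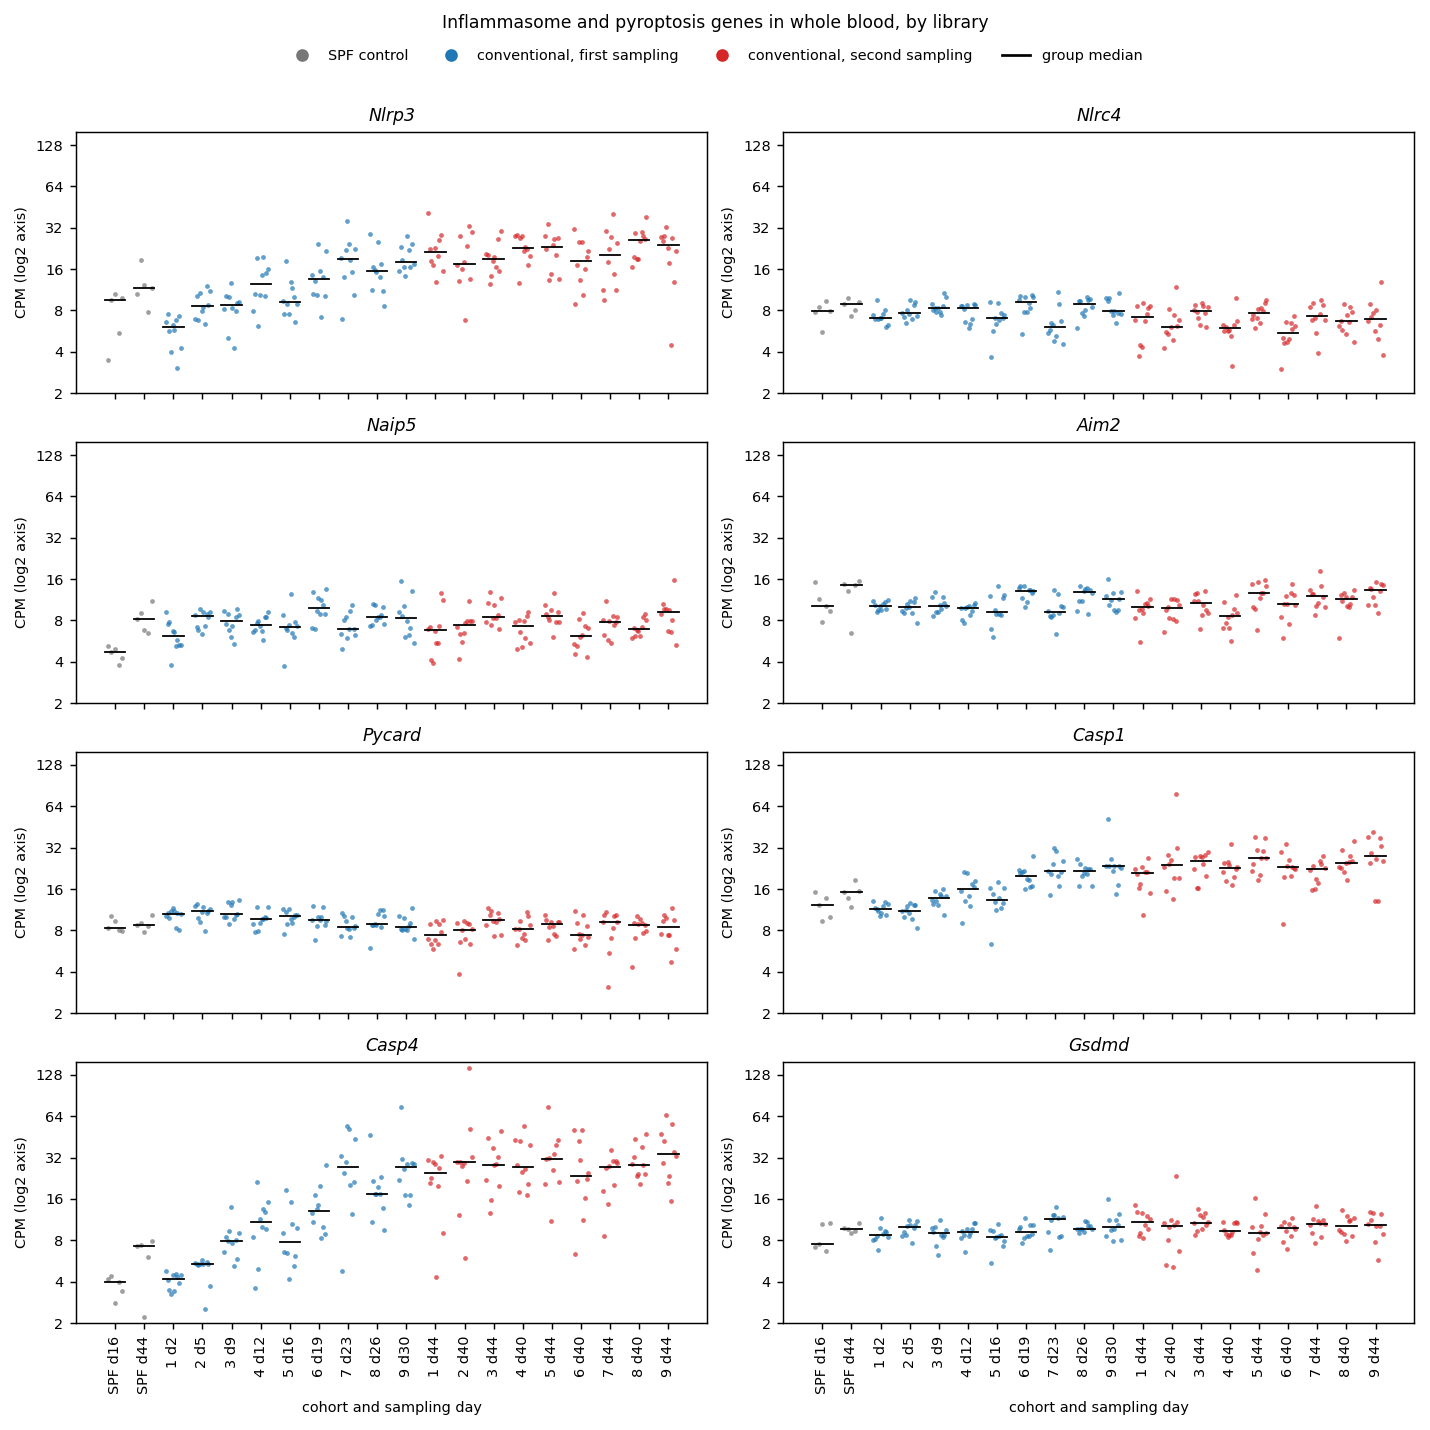
CPM (log2 axis) of each of the 8 genes in all libraries of the 20 groups, with cohort and sampling day on the x axis; points are libraries, bars are group medians, and colours mark SPF, first and second sampling. Casp4 medians span 3.96 to 33.95 CPM, while those of Gsdmd stay between 7.47 and 11.5 CPM.

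Nlrp3, the sensor that responds to potassium efflux and many signs of damage, lay on chromosome 11 (59432394 to 59457782, GRCm39, plus strand). Its group medians ran from 6.01 CPM on day 2 (lowest 3.04, highest 7.57) to 26.1 CPM in cohort 8 on day 40 (lowest 16.7, highest 38.4). In SPF mice the 5 values were 3.48, 9.59, 10.6, 5.45 and 9.93 CPM on day 16 and 10.5, 18.6, 12.3, 7.82 and 11.6 CPM on day 44. SPF mice of both days thus overlapped the conventional mice of the first weeks, and only in cohort 1 were all second-sampling values above all first-sampling ones, an order that 2.68% of all genes tested showed there. When the 20 medians were put in order, the ranges of neighbouring groups overlapped in 19 of 19 pairs, and this held for each of the 8 genes.

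Nlrc4, the sensor that assembles after NAIP proteins bind flagellin or secretion system parts, lay on chromosome 17 (74732433 to 74766137, minus strand). Its medians ran from 5.48 CPM (cohort 6, day 40) to 9.27 CPM (cohort 6, day 19). Both ends came from the same cohort, and the ranges of its samplings overlapped. Naip5, the receptor for flagellin, lay on chromosome 13 (100348247 to 100382831, minus strand) and had medians from 4.72 CPM in SPF mice on day 16 to 9.91 CPM in cohort 6 on day 19. In the SPF mice it was 5.23, 4.72, 4.99, 3.78 and 4.23 CPM on day 16 and 8.15, 9.04, 6.79, 6.43 and 11.1 CPM on day 44. These 2 sets of values did not overlap, an order found in 0.709% of all genes tested.

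Aim2, the sensor of cytosolic double-stranded DNA, lay on chromosome 1 (173178445 to 173293606, plus strand) and overlapped Cadm3 on the opposite strand, which had a median count of 6. Its medians ran from 8.64 CPM (cohort 4, day 40) to 14.4 CPM (SPF, day 44). The highest median of this gene was thus in mice without dermatitis. Pycard, the adaptor, lay on chromosome 7 (127588880 to 127593039, minus strand), where Gm45205 on the opposite strand had a median count of 80. Its medians ran from 7.35 CPM (cohort 1, day 44) to 11.02 CPM (cohort 2, day 5).

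Casp1, which matures interleukin-1 beta, and its neighbour Casp4 lay beside each other on the plus strand of chromosome 9 (5298508 to 5307290 and 5308828 to 5336783). Casp1 medians ran from 11.1 CPM (cohort 2, day 5; 8.31 to 12.6) to 27.9 CPM (cohort 9, day 44; 13.1 to 41.5). Its second-sampling values all exceeded its first-sampling values in cohorts 2, 3 and 5, where 4%, 1.89% and 0.418% of all genes tested showed that order, and so did those of Casp4 in cohort 2. Casp4 medians ran from 3.96 CPM in SPF mice on day 16 to 33.95 CPM in cohort 9 on day 44, a ratio of 8.56. Its 5 SPF values were 4.21, 4.44, 2.81, 3.96 and 3.41 CPM on day 16 and 7.29, 7.39, 2.22, 6.04 and 7.91 CPM on day 44. In conventional mice the first-sampling medians, from day 2 to day 30, were 4.20 (3.28 to 4.78), 5.39, 7.95, 10.8, 7.80, 13.2, 27.3 (4.81 to 54.01), 17.4 and 27.5 CPM (14.6 to 74.97). Day 2 values lay near those of SPF mice of day 16, and from day 19 on the conventional group medians were above every SPF value. Gsdmd, the pore former, lay on chromosome 15 (75734176 to 75739257, plus strand), and its medians ran from 7.47 CPM (SPF, day 16) to 11.5 CPM (cohort 7, day 23).

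The first samplings set days 2 to 30 in conventional housing side by side, with a different cohort on each day. Over the 90 libraries of days 2 to 30, 7 of the 8 genes had a trend at an adjusted p under 0.05, against 52.3% of all 18192 genes tested. Casp4 rose by 1.03 ± 0.08 (SE) log2 units per 10 days (edgeR's quasi-likelihood test with Benjamini-Hochberg adjustment, adjusted p = 1.0e-18). Nlrp3 rose by 0.57 ± 0.06 (adjusted p = 7.9e-14) and Casp1 by 0.43 ± 0.04 (adjusted p = 1.5e-17). The rises of Naip5 (0.12), Aim2 (0.08) and Gsdmd (0.07) and the fall of Pycard (-0.10 per 10 days) were small, and that of Gsdmd no longer passed without replicate 2 of day 30 (0.06, adjusted p = 0.0579). Without 7SL RNA, mitochondrial rRNA and globin genes Naip5, Aim2 and Gsdmd did not pass (adjusted p = 0.0521, 0.0967 and 0.126), and 4 of 8 genes were called beside 53.1% of all genes. The slope of Aim2 turned negative within cohorts 1 to 4 (-0.0676), within cohorts 6 to 9 (-0.0567) and with globin and mitochondrial rRNA shares as covariates (-0.0180), that of Naip5 within cohorts 6 to 9 (-0.1067), and that of Gsdmd within cohorts 1 to 4 (-0.0161). With the 5 marker lists described below as covariates 3 of 8 genes, Casp4, Casp1 and Aim2, were called beside 26.5% of all genes, Nlrp3 did not pass (0.0887, adjusted p = 0.197), and Gsdmd turned negative (-0.0768, adjusted p = 0.0532). Among libraries with a dermatitis score of 0 alone, the slopes of Casp4, Nlrp3 and Casp1 were 0.89, 0.49 and 0.39 per 10 days and each stayed under the threshold (adjusted p = 1.07e-09, 2.27e-05 and 2.1e-08). Among score 0 libraries, too, these 3 genes were thus higher in the cohorts sampled later, and no library of day 30 had that score. Whether this came from the day or from the cohort was not tested. Within cohorts 1 to 4 the slope of Casp4 was 1.497 (adjusted p = 1.15e-07), and within cohorts 6 to 9 it was 0.68 (adjusted p = 0.296), where none of the 8 genes and 2.53% of all genes passed. A test of any difference among the 9 days called 8 of 8 genes, against 57% of all genes.

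From the first to the second sampling, 4 genes rose, 2 fell and 2 did not pass. These 6 calls of 8 stand against 62.1% of all genes called (31.4% higher and 30.6% lower), so the share is near that of the background. With cohort as a covariate over 180 libraries, Casp4 was higher by 1.36 ± 0.13 log2 units (adjusted p = 6.4e-18, edgeR), Nlrp3 by 0.84 ± 0.09 (adjusted p = 1.2e-16) and Casp1 by 0.56 ± 0.06 (adjusted p = 4.9e-14). These are 2.56-, 1.79- and 1.48-fold. Gsdmd was higher by 0.11 ± 0.04 (adjusted p = 0.025), a call that was lost with DESeq2 (0.07, adjusted p = 0.16). Pycard fell by 0.23 ± 0.04 (adjusted p = 1.9e-07) and Nlrc4 by 0.19 ± 0.05 (adjusted p = 4.2e-04). Naip5 (-0.05 ± 0.05, adjusted p = 0.47) and Aim2 (0.02 ± 0.04, adjusted p = 0.77) did not pass. The median log2 change of the 8 genes was 0.06, beside -0.02 over all genes tested.

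The size of the rise differed between cohorts. Casp4 was called higher in 6 of 9 cohorts, with log2 changes of 2.47, 2.95, 1.83, 1.496, 1.86 and 0.95 in cohorts 1 to 6. Nlrp3 was called in cohorts 1 to 5 (1.97, 1.15, 1.19, 0.81 and 1.13), and Casp1 in the same 5 cohorts (0.75, 1.35, 0.81, 0.54 and 1.04). Pycard was called lower in cohorts 1 and 2 (-0.41 and -0.49), Nlrc4 in cohorts 4 and 6 (-0.35 and -0.68) and Naip5 in cohort 6 (-0.67), while Aim2 and Gsdmd were called in none. No gene of the 8 was called by edgeR or DESeq2 in cohorts 7, 8 and 9, where 1, 3 and 0 of them had an unadjusted p under 0.05. The share of all genes called was 39.1%, 47.1%, 25.3%, 30.9%, 14.9% and 21.1% in cohorts 1 to 6 and 2.65%, 1.47% and 7.28% in cohorts 7 to 9. In TPM the medians of Nlrp3 and Casp1 fell in cohorts 6 and 7 and rose in the other cohorts. In cohort 4 they went only from 2.066 to 2.287 (Nlrp3) and from 2.589 to 2.655 (Casp1). The TPM median of Casp4 fell in cohort 7 alone.

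**Figure D2:**
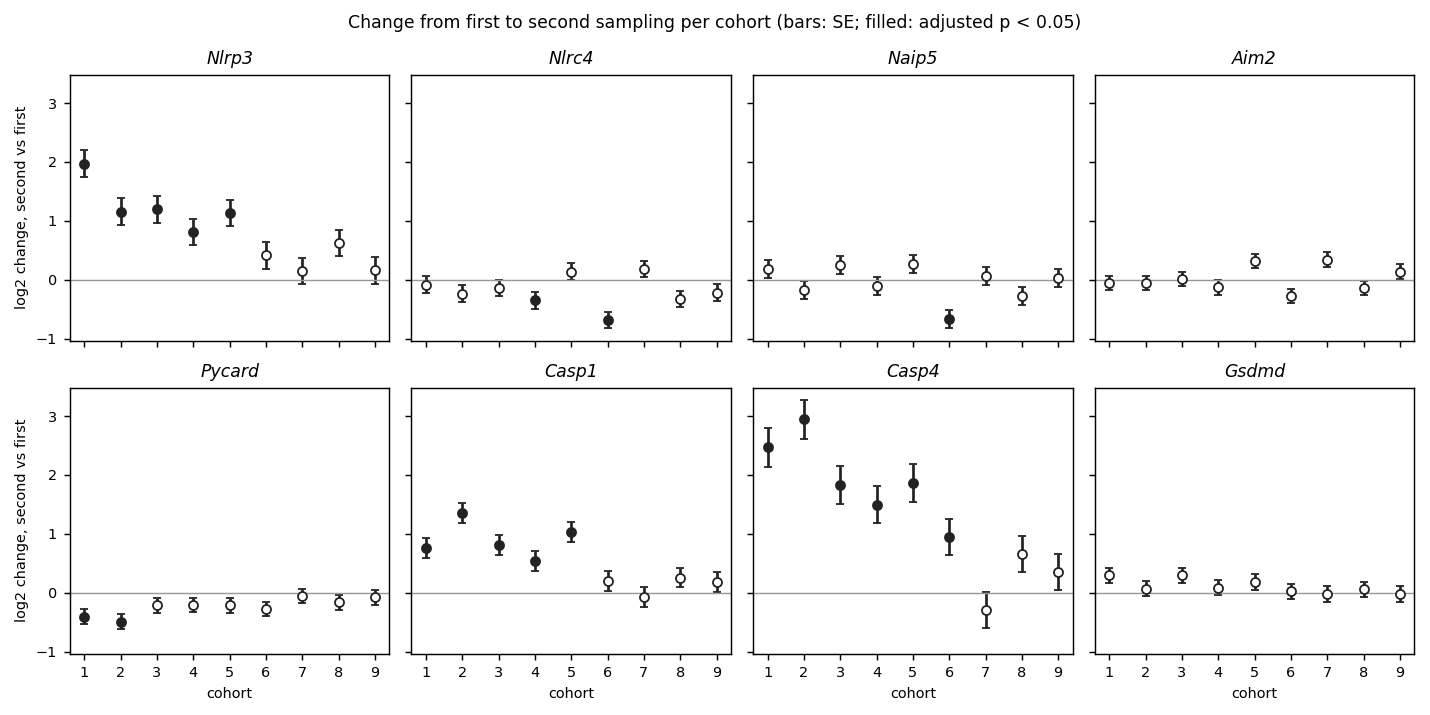
Log2 change from the first to the second sampling (y axis) in each of the 9 conventional cohorts (x axis) for the 8 genes; bars are standard errors and filled points had an adjusted p under 0.05. Casp4 changes by 2.47 in cohort 1 and by -0.29 in cohort 7.

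The mean change of cohorts 1 to 4 exceeded that of cohorts 6 to 9 for 3 of the 8 genes, a comparison chosen after the data were seen, in which 25.3% of all genes were called (14.5% higher). The difference was 1.77 ± 0.22 log2 units for Casp4 (adjusted p = 8.1e-11, edgeR), 0.95 ± 0.16 for Nlrp3 (adjusted p = 6.7e-07) and 0.72 ± 0.12 for Casp1 (adjusted p = 3.9e-07). The cohorts 6 to 9 were first sampled later (days 19 to 30), and the interval to the second sampling was shorter. Their Casp4 medians were 13.2, 27.3, 17.4 and 27.5 CPM at the first and 23.5, 27.2, 28.5 and 33.95 CPM at the second sampling. In cohorts 1 to 4 the first-sampling medians were 4.20, 5.39, 7.95 and 10.8 CPM. First day, interval and cohort cannot be told apart. Fitted separately, Casp4 was higher at the second sampling by 2.18 in cohorts 1 to 4 (adjusted p = 6.56e-19) and by 0.42 in cohorts 6 to 9 (adjusted p = 0.0541). The values were 1.28 (adjusted p = 9.85e-17) and 0.34 (adjusted p = 0.0416) for Nlrp3 and 0.86 (adjusted p = 5.85e-14) and 0.14 (adjusted p = 0.228) for Casp1.

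The comparison with SPF mice sets 2 kinds of housing side by side, and housing and dermatitis cannot be told apart in it. On day 44, Casp4 had a median of 28.7 CPM in 50 conventional libraries (4.30 to 75.4) and 7.29 CPM in the 5 SPF libraries, and 49 of 50 conventional values lay above the highest SPF value. Casp1 had medians of 23.9 and 15.2 CPM with 39 of 50 above, and Nlrp3 20.99 and 11.6 CPM with 30 of 50 above. These 3 of 8 genes were called higher, against 11% of all genes called higher and 21.2% called in either direction. The differences were 2.22 ± 0.38 log2 units for Casp4 (adjusted p = 4.6e-05, edgeR), 0.68 ± 0.19 for Casp1 (adjusted p = 0.0074) and 0.82 ± 0.27 for Nlrp3 (adjusted p = 0.027). The call of Nlrp3 was lost when SPF replicate 1, 3, 4 or 5 was left out (adjusted p = 0.0702, 0.0678, 0.103 and 0.0655), and those of Casp4 and Casp1 were kept. Nlrc4 was below the lowest SPF value in 23 of 50 libraries and Pycard in 19 of 50, but neither passed (-0.23 ± 0.16, adjusted p = 0.3, and -0.07 ± 0.15, adjusted p = 0.8). Of the 8 conventional mice of day 44 with a score of 0 or 0.5, 7 had more Casp4 than any SPF mouse. The median of the 8 was 16.2 CPM, and the highest SPF value was 7.907 CPM. At score 0 the values were 4.3, 8.995, 10.98, 21.39 and 8.548 CPM, and at score 0.5 they were 33.05, 43.06 and 35.27 CPM. In TPM the day 44 medians of Casp4 in cohorts 1, 3, 5, 7 and 9 were 2.584, 4.346, 6.513, 4.716 and 8.376, beside 2 in SPF mice. For Nlrp3 they were 2.354, 2.071, 3.157, 2.37 and 3.749, beside 2.896. For Casp1 they were 3.026, 2.98, 4.308, 2.828 and 5.133, beside 3.148. In TPM cohorts 1, 3 and 7 were thus below SPF mice for Nlrp3 and Casp1, and no test was run on TPM.

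On day 16 edgeR called none of the 8 genes between cohort 5 and the SPF mice, where 0.473% of all genes were called. At an unadjusted p under 0.05 there were 2, Casp4 (1.28 ± 0.37 log2 units higher, adjusted p = 0.11) and Naip5 (0.68 ± 0.19, adjusted p = 0.078). DESeq2 called both (adjusted p = 0.00808 and 0.017). The share of 0.473% is that of edgeR, and the share of all genes that DESeq2 called is not reported here. In each of these genes 9 of 10 conventional values lay above the highest SPF value. From day 16 to day 44 cohort 5 rose in Casp4 (1.86 ± 0.29), Nlrp3 (1.13 ± 0.21) and Casp1 (1.04 ± 0.15), 3 of 8 genes against 12.4% of all genes (8.49% higher). The SPF cohort had no call among the 8 genes with edgeR or DESeq2 (0% of all genes with edgeR), with 2 genes at an unadjusted p under 0.05. Its values were 0.71 ± 0.41 for Casp4, 0.64 ± 0.30 for Nlrp3, 0.30 ± 0.21 for Casp1 and 0.86 ± 0.21 for Naip5. The difference between the changes of the housings was 1.15 ± 0.50 for Casp4 (adjusted p = 0.42). It passed for none of the 8 genes with edgeR or DESeq2 and for 0% of all genes with edgeR, and 3 of the 8 had an unadjusted p under 0.05.

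Casp4 also followed the dermatitis score within a sampling. At the second sampling its medians were 10.98 CPM at score 0 (n = 7, 4.30 to 42.4), 33.1 at 0.5 (n = 5), 26.0 at 1 (n = 11), 23.4 at 2 (n = 27) and 29.7 at 3 (n = 39, 15.6 to 143.8), with 37.4 in the 1 library at 4. Of the 7 values at score 0, 5 were at or below 11.31 CPM, but the highest was 42.4, and 2 libraries at score 1 had 5.986 and 6.385 CPM. The medians did not increase from score 0.5 to 2. Its slope was 0.33 ± 0.07 log2 units per score point (adjusted p = 2.9e-04, edgeR, cohort as a covariate). It was 0.38 within cohorts 1 to 4 (adjusted p = 0.027) and 0.28 within cohorts 6 to 9 (adjusted p = 0.19). Aim2 (-0.13 ± 0.03, adjusted p = 9.7e-04), Nlrc4 (-0.13 ± 0.04, adjusted p = 0.0033) and Naip5 (-0.09 ± 0.04, adjusted p = 0.04) were lower with a higher score. These 4 of 8 genes stand beside 36.6% of all genes. Nlrp3 (0.14 ± 0.06, adjusted p = 0.057) and Casp1 (0.10 ± 0.05, adjusted p = 0.094) did not pass.

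At the first sampling of days 12 to 30, with 60 libraries, Casp4 (0.56 ± 0.14, adjusted p = 0.0073) and Casp1 (0.22 ± 0.07, adjusted p = 0.036) rose with the score, 2 of 8 genes against 10% of all genes (6.18% higher). With globin and mitochondrial rRNA shares as covariates Casp1 did not pass (0.18, adjusted p = 0.097). The difference of the slopes between the samplings passed for none of the 8 genes with edgeR or DESeq2 and for 0% of all genes with edgeR, with 1 of the 8 at an unadjusted p under 0.05. The 12 second-sampling mice with a score of 0 or 0.5 had medians of 24.9 CPM for Casp4, 27 for Casp1 and 15.1 for Nlrp3. Against first-sampling mice at score 0, where the Casp4 median was 6.52 CPM, they were higher by 1.58 ± 0.22 (adjusted p = 7.84e-08), 0.72 ± 0.11 (adjusted p = 6.92e-07) and 1.11 ± 0.16 log2 units (adjusted p = 3.29e-07). The scores of these sets differ too, since 5 of the 12 had a score of 0.5, and their Casp4 median was 33.1 CPM beside 10.98 CPM in the 7 at score 0.

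**Figure D3:**
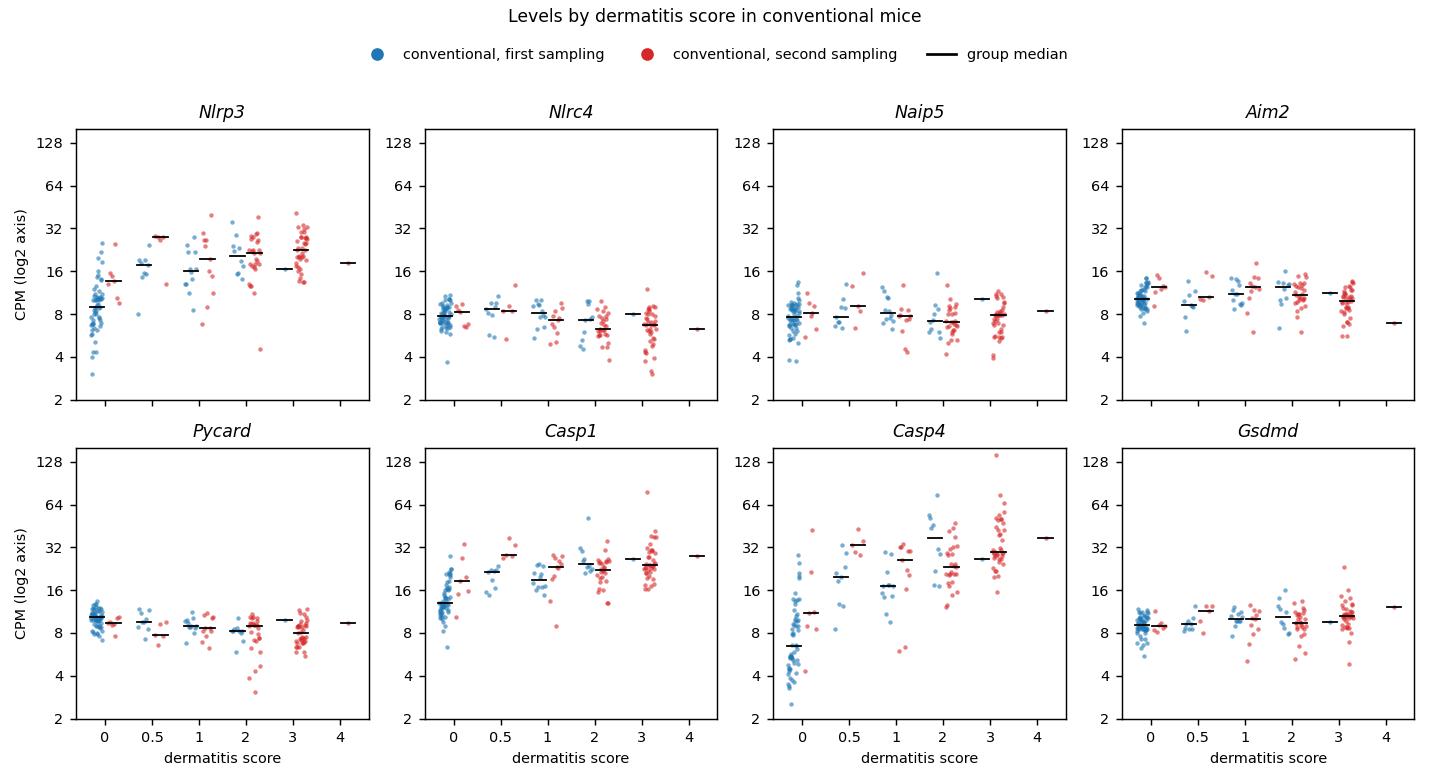
CPM (log2 axis) of the 8 genes by dermatitis score in conventional mice; points are libraries coloured by sampling and bars are medians. Casp4 at the second sampling has a median of 10.98 CPM at score 0 and 29.7 CPM at score 3, with ranges that overlap.

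Markers of blood cells moved with these genes. Of all genes tested 31.4% were called higher and 30.6% lower between the samplings, and 11% higher in conventional mice on day 44. All 12 neutrophil markers (among them S100a8, Cxcr2 and Ly6g) were called higher at the second sampling, with a median log2 change of 1.74, and higher in conventional mice on day 44, with a median of 3.19. Their summed level had group medians from 416 CPM on day 2 to 7951 CPM in cohort 9 on day 44, and was 467 and 711 CPM in the SPF mice of days 16 and 44. Of 10 monocyte markers 7 were called higher and 2 lower at the second sampling, 10 of 10 B cell markers were lower and 11 of 12 interferon-stimulated genes were higher. All 8 erythroid markers were called higher, with a median log2 change of 1.25, and their summed level went from a median of 39020 to 68330 CPM in cohort 4 and from 26480 to 62560 CPM in cohort 6. The median of this sum also rose in cohorts 1 to 3. It was 33180 and 33270 CPM in cohort 8. In cohorts 5, 7 and 9 it went down, from 37860 to 31830, from 42200 to 41650 and from 41550 to 31770 CPM. Of the neutrophil markers, Ly6g was at 0 in 1 library. The eosinophil marker Epx was at 0 in most libraries and was not tested.

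Within groups, the genes differed in how closely they varied with the marker lists. Over 190 libraries with group means removed, the correlation with the neutrophil list was 0.89 for Casp4, 0.69 for Nlrp3, 0.66 for Casp1 and 0.49 for Gsdmd, but 0.03 for Naip5, -0.16 for Pycard, -0.17 for Aim2 and -0.21 for Nlrc4. With the monocyte list it was 0.72 for Naip5, 0.63 for Casp1, 0.57 for Gsdmd, 0.55 for Casp4, 0.43 for Nlrc4, 0.40 for Nlrp3, 0.28 for Pycard and 0.17 for Aim2. With the erythroid list it was -0.60 for Nlrc4, -0.59 for Pycard, -0.57 for Aim2, -0.53 for Naip5, -0.30 for Gsdmd, -0.21 for Casp1, -0.07 for Nlrp3 and 0.09 for Casp4. With the B cell list it was 0.50 for Nlrc4, 0.38 for Aim2, 0.33 for Pycard and 0.10 for Naip5. For Gsdmd, Nlrp3, Casp1 and Casp4 the B cell value was -0.14, -0.30, -0.40 and -0.63. With the T cell list it was 0.49 for Pycard, 0.28 for Nlrc4, 0.15 for Aim2 and 0.10 for Naip5. The T cell value was -0.07 for Gsdmd, -0.17 for Nlrp3, -0.43 for Casp1 and -0.54 for Casp4. With the interferon-stimulated list it was 0.56 for Casp4, 0.35 for Casp1, 0.29 for Nlrp3 and 0.19 for Gsdmd. For Naip5, Aim2, Pycard and Nlrc4 the interferon-stimulated value was -0.08, -0.22, -0.33 and -0.34. Casp1 and Casp4 correlated with each other at 0.81, and Nlrp3 with Casp4 at 0.66. The points share library, depth and cell composition, and the values are descriptions.

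**Figure D4:**
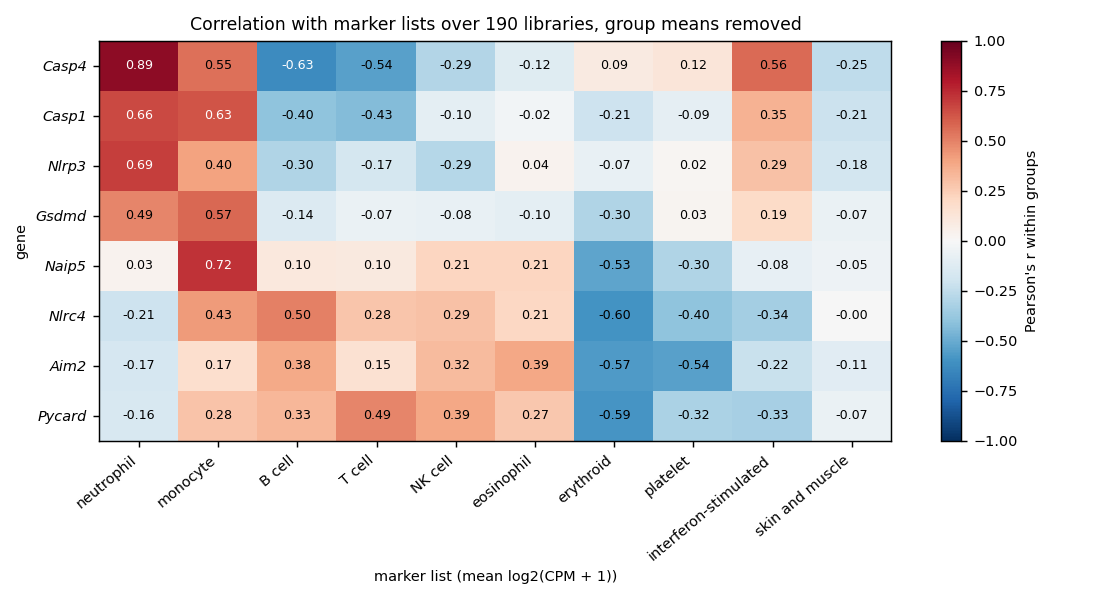
Pearson's r within groups between each of the 8 genes (rows) and the mean log2(CPM + 1) of 10 marker lists (columns) over 190 libraries. Casp4 has r = 0.89 with the neutrophil list and Naip5 r = 0.72 with the monocyte list.

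Among protein-coding genes tested, those whose within-group pattern was most like Casp4 were Trim30a (r = 0.94), Gk (0.94) and Tpd52 (0.94), and for Casp1 they included Sat1 (0.86) and Trim30a (0.84). For Nlrp3 they were Csf3r (0.93), the receptor of granulocyte colony-stimulating factor and itself 1 of the 12 neutrophil markers, Igf1r (0.92) and Nfam1 (0.91). For Naip5 they were Cybb (0.79), a subunit of the phagocyte NADPH oxidase, Zfyve9 (0.73) and Ptpro (0.72). For Gsdmd they were Prkcd (0.74), Nckap1l (0.72) and Nrros (0.71), and for Aim2 Gbp9 (0.70), Stap1 (0.70) and 2010315B03Rik (0.68). Matches were weaker for Nlrc4, with Kmo (0.69), Cyria (0.66) and Ccdc50 (0.66), and weakest for Pycard, with Dnajc13 (0.56), S1pr1 (0.55) and Spcs2 (0.55).

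With the means of the neutrophil, monocyte, B cell, T cell and erythroid lists as covariates, the second-sampling differences were 0.18 ± 0.05 for Casp4 (adjusted p = 0.0202), 0.17 ± 0.04 for Casp1 (adjusted p = 0.00295) and 0.18 ± 0.07 for Nlrp3 (adjusted p = 0.081). Aim2 was then called higher (0.21, adjusted p = 2.32e-04), and Pycard and Nlrc4 no longer passed. The day 44 difference of Casp4 became 0.49 ± 0.17 (adjusted p = 0.122), and no gene of the 8 was called there or for either score slope. With these covariates 1.13% of all genes were called on day 44, 0.022% for the first and 0.011% for the second score slope, so 0 of 8 is near the share of all genes there. Between samplings the share of all genes was 9.96%. Whether the differences come from cell numbers was not tested.

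**Figure D5:**
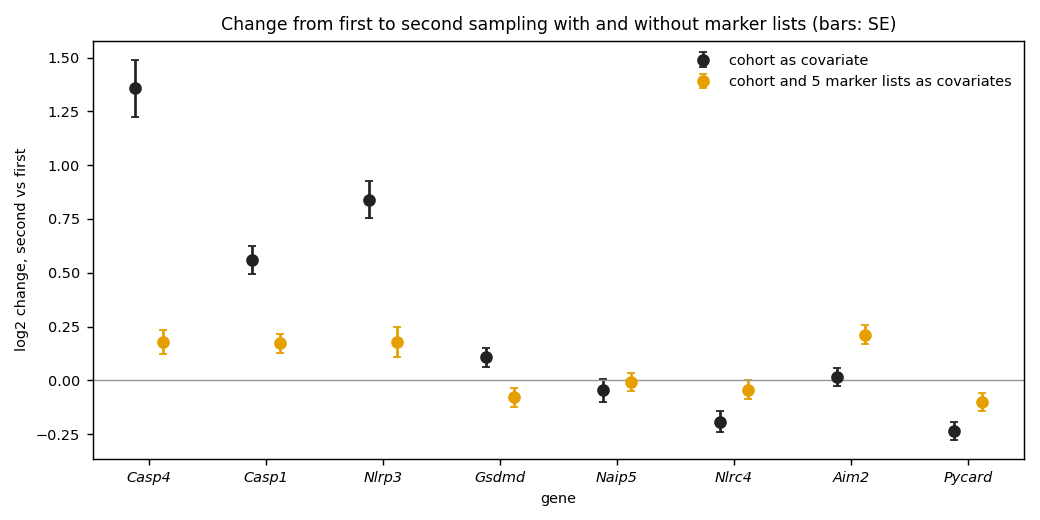
Log2 change from the first to the second sampling (y axis) of the 8 genes with cohort alone and with cohort and 5 marker lists as covariates; bars are standard errors. Casp4 goes from 1.36 to 0.18 and Aim2 from 0.02 to 0.21.

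The other genes of the pathway moved unevenly between the samplings, beside 62.1% of all genes called. Of 9 further sensors 5 rose and 1 fell: Nlrp12 (1.30 ± 0.12 log2 units), Mefv, which codes for pyrin (1.13 ± 0.12), Nlrp1a (0.35 ± 0.08) and Naip2 (0.32 ± 0.05) rose most, and Naip6 fell by 0.20. Of 7 activation partners tested 4 rose, led by the guanylate-binding protein gene Gbp2 (0.92 ± 0.12) and Nek7 (0.36 ± 0.06), a partner of NLRP3, with Gbp5 (0.32 ± 0.09) and Txnip (0.29 ± 0.04), and P2rx7, the ATP-gated channel, fell by 0.23. Of 5 substrates and execution genes 3 rose. They were Gsdme, another gasdermin (1.24 ± 0.12), Il1b (1.10 ± 0.12) and Ninj1 (0.16 ± 0.07), the gene of a protein of membrane rupture, while Il18 (0.08 ± 0.08) and Il1a (0.24 ± 0.19) did not pass.

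Of 7 other death caspases and necroptosis genes 1 rose, Ripk1 (0.31 ± 0.04), and 4 fell, among them Casp12 (-0.46 ± 0.17) and Ripk3 (-0.27 ± 0.06). Of 6 restraint genes tested 4 rose and 2 fell. Il1rn, the interleukin-1 receptor antagonist (0.97 ± 0.11), Chmp4b, a subunit of the membrane repair machinery ESCRT-III (0.89 ± 0.10), Trim30a (0.80 ± 0.08) and Il18bp (0.69 ± 0.11) were higher, and Serpinb1a, an inhibitor of neutrophil proteases, fell by 0.45. On day 44 the same comparison with SPF mice called Il1b (2.03 ± 0.33), Mefv (1.91 ± 0.32), Gsdme (1.84 ± 0.34), Nlrp12 (1.79 ± 0.33) and Il1rn (1.44 ± 0.31) higher. Il1b and its antagonist were thus both higher.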

How the data were processed

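The submitters' processing notes name DRAGEN and build GRCm39. Version, annotation release and strand setting: not given in the sources used here. From their reads the authors deposited a table of expected counts per gene (2.86% of values not whole) and TPM values. TPM served to compare levels between genes and, without a test, as a second scale for Casp4, Nlrp3 and Casp1. Per the labels' protocols, blood came from the tail vein and libraries were stranded total RNA with ribosomal and globin depletion. Expected counts were rounded, and filterByExpr over 20 groups kept 18192 genes (at least 10 counts, and 15 in total). After TMM scaling, genes were tested by robust two-sided quasi-likelihood fits in edgeR 4.0.16 (limma 3.58.1, R 4.3.3). A call means a p under 0.05 after Benjamini-Hochberg adjustment over all genes. SE is the absolute log2 value over the square root of F. CPM is the count scaled by effective library size. DESeq2 1.42.0 and the other alternatives are in the closing section, and summaries used Python 3.11.15 with pandas 2.3.3.

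All 8 genes were named in every comparison, with the 3 protein-coding genes most correlated within groups (log2(CPM + 1)) and up to 4 called genes per pathway list with the largest change; some genes under this rule are not reported here. The 8 genes and all lists were chosen with earlier results of these data known. Irgb10 had no match by symbol. Replicate numbers were not taken to pair samplings: 37 of 95 pairs correlated above 0.1 where every pair had to, so libraries entered the tests as independent, although both samplings of a cohort may hold the same mice. Failing this rule does not show that the numbers mark different mice. Same-numbered libraries had equal or higher dermatitis scores at the second sampling. If the mice are the same, the main tests leave the pairing out, and the closing section gives a fit with replicate number as a block. The p-values measure the spread between these libraries. The fits were tested on simulated data first.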

Additional observations from a re-analysis of the deposited data

Results flagged for a closer look

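Single libraries stood far from the others of their group in 16 of 160 gene-by-group sets, judged by the gap to the nearest library on the log2(CPM + 1) scale; chance flags about 1 set in 20. High values came from 2 libraries. Replicate 8 of cohort 2 on day 40 had 79.06 CPM of Casp1 (next 31.87) and 23.45 CPM of Gsdmd (next 11.16), and its 143.8 CPM of Casp4 was the highest of all libraries. Replicate 2 of cohort 9 on day 30 had 51.68 CPM of Casp1 (next 26.59) and 74.97 CPM of Casp4 (next 31.16). Without these 2 libraries 24 in place of 21 gene-by-cohort changes were called.

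Low values were 4.511 CPM of Nlrp3 (cohort 9, day 44, replicate 7), 5.39 and 3.004 CPM of Nlrc4 (cohort 6, day 19, replicate 3, and day 40, replicate 1), and 2.218 CPM of Casp4 in SPF replicate 3 on day 44, which also had the low 6.487 CPM of Aim2. Aim2 was low at 5.6 CPM (cohort 1, day 44, replicate 4) and at 5.99 CPM (cohort 8, day 40, replicate 1). Pycard was low at 3.86 CPM (cohort 2, day 40, replicate 2), 5.914 CPM (cohort 8, day 26, replicate 1) and 4.347 CPM (cohort 8, day 40, replicate 1). Casp1 was low at 6.413 CPM (cohort 5, day 16, replicate 2) and 8.966 CPM (cohort 6, day 40, replicate 2).

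The change between samplings differed between cohorts 1 to 4 and cohorts 6 to 9 by 0.9459 log2 units for Nlrp3, 0.72 for Casp1 and 1.768 for Casp4, by the test of the difference itself. With the 5 marker lists as covariates the difference was 0.32 for Casp4 (adjusted p = 0.02, edgeR), 0.23 for Casp1 (adjusted p = 0.0359) and 0.19 for Nlrp3 (adjusted p = 0.398).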

How the results depend on the processing

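Of 1498 recomputed single-gene values, 1396 kept their side of the threshold, 75 lost a call and 15 gained 1 in the same direction. The other 12 reversed their direction and were called in the main or the recomputed fit. Values called in neither fit count among the 1396 whatever their direction. With the 5 marker lists as covariates the number of the 8 genes called went from 6 to 3 between samplings, from 7 to 3 for the trend, from 3 to 0 on day 44, from 3 to 0 for the change of cohort 5, from 2 to 0 and from 4 to 0 for the score slopes of the first and second sampling, and from 21 to 10 of 72 gene-by-cohort changes. The share of all genes called fell too, from 62.1% to 9.96% between samplings, from 52.3% to 26.5% for the trend, from 21.2% to 1.13% on day 44, from 12.4% to 0.033% for cohort 5, and from 10% to 0.022% and from 36.6% to 0.011% for the score slopes. The same covariates reversed Aim2 (0.3291) and Gsdmd (-0.3132) in cohort 2, Gsdmd in the trend (-0.0768) and between samplings (-0.0784), Casp4 on the first score slope (-0.0372) and Naip5 on the second (0.0214).

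Within cohorts 1 to 4, 3 genes were called for the trend and 1 for the second score slope; within cohorts 6 to 9 the counts were 0 and 0, and 2 between samplings. Of all genes 23.2% and 29.7% were called within cohorts 1 to 4, and 2.53%, 0% and 19.9% within cohorts 6 to 9. Trend values reversed for Aim2 (-0.0676 and -0.0567 within these sets, -0.0180 with globin and mitochondrial rRNA shares as covariates), Naip5 (-0.1067, cohorts 6 to 9) and Gsdmd (-0.0161, cohorts 1 to 4). Nlrc4 between samplings was 0.0267 with low scores only. Without 7SL RNA, mitochondrial rRNA and globin genes 4 genes were called for the trend. With globin and mitochondrial rRNA shares as covariates 1 was called for the first score slope. DESeq2 called 2 on day 16, where its share of all genes is not reported here. The cause was not tested.

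With the replicate number as a block, Gsdmd between samplings was 0.0873 (adjusted p = 0.0647, edgeR) and lost its call; Casp4 was 1.3, Nlrp3 0.8320 and Casp1 0.5318. The correlation of same-numbered libraries ran from -0.354 to 0.631, and 13 of 95 correlated best with their own number, so the numbers were not taken as pairs. These values do not show that the numbers mark different mice. With 5 SPF mice per day the comparisons of housing have limited precision.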
